A study of Mus musculus with 9 samples.

Results

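The genes described here encode the subunits of the mTOR complexes and the TSC-Rheb switch that controls one of them. They were chosen by name: Mtor, Rptor, Rictor, Mlst8, Mapkap1, Deptor, Akt1s1, Tsc1, Tsc2 and Rheb, which are 10 of the 47643 genes in the count table. All 10 passed the filter on low counts, as did 18205 genes in all, and their counts ranged from 23 to 6992 in a library.

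mTOR is a kinase that works in a pair of complexes. In mTORC1 it is bound to Raptor (Rptor) and PRAS40 (Akt1s1), and this complex promotes protein synthesis and restrains autophagy when growth factors and amino acids are present. In mTORC2 it is bound to Rictor and mSIN1 (Mapkap1), and this complex phosphorylates AKT. mLST8 and the inhibitor DEPTOR are shared by both. PI3K signaling reaches mTORC1 through AKT, which inhibits TSC2, the partner of TSC1 in a complex that switches off the GTPase Rheb, the direct activator of mTORC1. In hematopoietic stem cells (HSCs) this pathway is known for its part in the balance between quiescence and proliferation.

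RNA was measured by bulk sequencing of donor long-term HSCs (LT-HSCs), sorted as Lin-cKit+Sca1+Flk2-CD48-CD150+ cells from the bone marrow of transplant recipients. TKO donors were Pik3cd-/- and carried Mx1-Cre together with floxed alleles of the other genes (Pik3ca lox/lox and Pik3cb lox/lox). δKO donors were littermates with the same alleles and no Cre, and WT donors carried Mx1-Cre with no targeted PI3K allele. Pik3ca, Pik3cb and Pik3cd encode the catalytic subunits p110α, p110β and p110δ of class IA PI3K. Whole bone marrow of C57BL/6 background was transplanted into lethally irradiated B6.SJL recipients 6 to 8 weeks old, all groups received pIpC (250 μg, 2 injections 48 hours apart), and cells were harvested 4 weeks later. Mx1-Cre is driven by an interferon-responsive promoter that pIpC induces, in HSCs and in other cells that can respond to interferon. Pik3cd was deleted in the germline, so TKO and δKO share its loss from development on. δKO differs from both other groups in having no Cre, so within TKO against δKO the loss of p110α and p110β and the presence of Cre cannot be told apart. Within δKO against WT, the loss of p110δ, the absence of Cre and the unexcised floxed alleles cannot be told apart either.

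Each genotype has 3 libraries. The submitters describe them as biological replicates, whereas the methods state that cells of all 7 recipients of a group were pooled before staining, so the p-values here measure the spread between libraries, which may be technical. One δKO column of the count table has a number that no label gives. It was matched by genotype only and is called the unnumbered δKO library. Library totals ranged from 31300343 to 60386097 counts. δKO replicate 1 and the unnumbered δKO library stood apart, with 18180 and 18500 genes detected against 19703 to 22703 in the other libraries, and the values of many results without them are given beside the results. All 9 LT-HSC markers used (Procr, Slamf1, Fgd5, Hlf, Mecom, Ly6a, Kit, Hoxb5 and Ctnnal1) had counts, with a summed level of 1030 to 2090 CPM (counts relative to the library's total, edgeR's unit, after TMM scaling). Neutrophil genes reached 11800 CPM in the WT libraries, and their sums are given beside Deptor, Mlst8, Akt1s1, Rheb, Rps6ka1 and Hsp90aa1.

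The targeted genes were examined first. Pik3ca stood at 57.1 ± 10.1 CPM for WT, 59.2 ± 25.4 for δKO and 60.2 ± 7.59 for TKO (mean ± SD, n = 3 in each genotype, here and below). A gene count adds up all exons, so removal of part of a gene can leave it unchanged, and the Pik3ca count does not check the genotype. Pik3cb stood at 63.6, 44.6 and 60.4 CPM for WT, 101, 33.2 and 68.7 for δKO and 33.5, 25.5 and 33.9 for TKO, where all libraries lay below WT. Pik3cd stood at 139, 98.2 and 112 CPM for WT, 38.5, 91.2 and 71.1 for δKO and 71.2, 73.1 and 73.5 for TKO, with both Pik3cd-null groups below WT in all libraries.

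Per kilobase of exon, Mapkap1 was the most abundant of the 10 transcripts and Mlst8 the least. The level of Mapkap1 over the 9 libraries was 20.8 ± 4.34 CPM per kb (mean ± SD). It lay above Mtor, at 9.25 ± 1.52 CPM per kb, in 9 of 9 libraries. The Deptor level, 8.18 ± 3.13 CPM per kb, and the Tsc2 level, 7.97 ± 1.5 CPM per kb, came next. Mtor exceeded Deptor in 6 of 9 libraries, which were all those of WT and δKO, and lay below it in the 3 of TKO, so the order of this pair differed by genotype. Deptor exceeded Tsc2 in 4 of 9 libraries, the 3 of TKO and the unnumbered δKO library. Tsc2 exceeded Rictor, at 5.97 ± 1.85 CPM per kb, in 9 of 9 libraries. Below it, Tsc1 at 5.36 ± 2.53, Rptor at 5.04 ± 1.05 and Rheb at 4.06 ± 1.53 CPM per kb did not separate, since no neighbour in this order was higher in more than 6 of 9 libraries. Akt1s1 stood at 3.66 ± 1.44 and Mlst8 at 2.10 ± 1.06 CPM per kb, with Akt1s1 higher in 7 of 9 libraries. In mean level per kilobase, Deptor ranked the fourth in WT and in δKO and the second, above Mtor, in TKO.

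**Figure D1:**
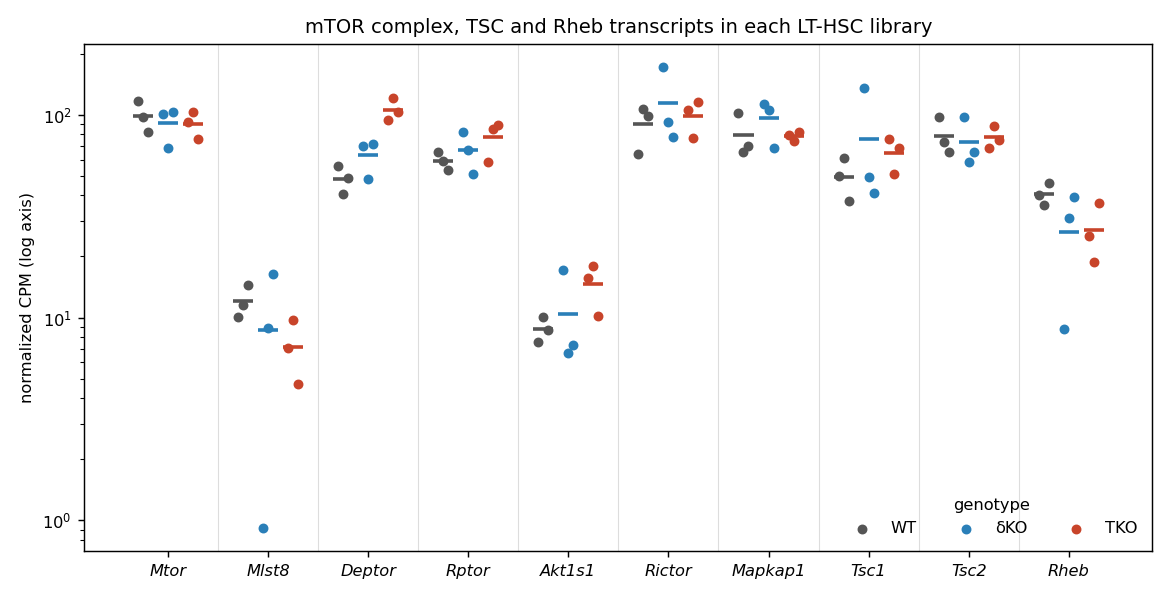
Normalized CPM (log axis) of the 10 genes in each library, with WT in gray, δKO in blue and TKO in red; a point is a library and a bar the mean of 3. The 3 TKO points of Deptor, 94.4 to 121 CPM, lie above all 6 others, while δKO replicate 1 is the low point of Mlst8 (0.917 CPM) and Rheb (8.74 CPM) and the high point of Tsc1 (136 CPM).

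Deptor was the gene of the group with the largest difference. It encodes a protein that binds mTOR and inhibits both complexes. Its level was 55.9, 40.7 and 48.7 CPM in WT, 70.0, 48.1 and 71.8 CPM in δKO, and 94.4, 121 and 103 CPM in TKO. All 3 TKO libraries lay above all 6 others, and δKO overlapped WT. Of the 10 genes, 1 had TKO libraries above the 6 others, where 2.12% of all 18205 genes did, and 0 had them below, where 1.69% did. The level in TKO was 2.19 times that in WT (95% interval 1.45 to 3.30; log2 fold change 1.13, SE 0.27), and 1.67 times that in δKO (interval 1.11 to 2.52; log2 fold change 0.74, SE 0.27). The δKO level was 1.31 times that in WT (interval 0.868 to 1.97; log2 fold change 0.39, SE 0.27).

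Deptor did not pass edgeR's quasi-likelihood test after adjustment over all genes. Its unadjusted p in that model was 0.00146 for TKO against WT, 0.0182 for TKO against δKO and 0.179 for δKO against WT, and the Benjamini-Hochberg adjusted p from edgeR was 1.00, 0.465 and 0.768. DESeq2, the tool named in the study's methods, gave an adjusted p of 0.0476 for TKO against WT when fitted to all 9 libraries, of 0.0011 when fitted to these genotypes alone and of 0.0151 without the filter on low counts, and called Deptor (adjusted p under 0.05 and more than 2-fold) in all 3 fits. It called 0.33%, 2.36% and 0.447% of all genes tested in the same fits. limma voom with sample quality weights gave an adjusted p of 0.0763. Over the 22 alternative fits the log2 fold change of TKO against WT ranged from 1.01 to 1.24 and the adjusted p from 0.0011 to 1.00. For TKO against δKO the log2 fold change ranged from 0.57, without δKO replicate 2, to 1.13, without δKO replicate 1 and the unnumbered δKO library. For δKO against WT it was -0.0091 without those δKO libraries, of which only replicate 2, at the WT level, then remained.

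Several marker lists also differed between TKO and WT, whereas the erythroid, megakaryocyte, B cell and monocyte sums overlapped. Within δKO the neutrophil sum did not follow Deptor, at 252 CPM in replicate 1 and 11500 CPM in the unnumbered library. The summed level of 10 genes of dividing cells was 2350 to 3200 CPM for WT, 2350 to 3700 for δKO and 1680 to 1780 for TKO, where it lay below all 6 other libraries. All 10 had a lower fitted level in TKO than in WT, 9 of them without overlap. The summed level of the 9 LT-HSC markers was 1070 to 1200 CPM for WT, 1030 to 2090 for δKO and 1370 to 1750 for TKO, and all 9 had a higher fitted level in TKO than in WT, 6 without overlap. The 10 neutrophil genes summed to 4970 to 11800 CPM for WT, 252 to 11500 for δKO and 150 to 3010 for TKO, with all 10 lower in TKO than in WT and 4 without overlap. The 6 T and NK cell genes summed to 82.7 to 236 CPM for WT, 55.2 to 193 for δKO and 34.2 to 71.8 for TKO, a difference carried by Nkg7 (73.4 to 231 CPM for WT and 16.5 to 65.4 for TKO). Of the other genes of that list, Lck and Cd3d had a higher fitted level in TKO than in WT, Trbc1 and Trbc2 stayed at or under 0.21 CPM, and Cd3e was at 0 in every library. The part of these genes in the Deptor difference was not tested, and in bulk RNA a change in the mix of cells and a change in RNA per cell cannot be told apart. Gm9920, a transcript of the opposite strand that covers 3.41% of the Deptor exon bases, stood at 1.5 to 2.39 CPM for WT, 0.295 to 2.67 for δKO and 0.382 to 1.25 for TKO, so it was low and not highest in TKO.

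Mtor, the kinase itself, did not differ beyond the spread between libraries. Its level was 117, 97.2 and 82.4 CPM in WT, 101, 68.7 and 103 CPM in δKO, and 92.6, 103 and 76.0 CPM in TKO, and the genotypes overlapped throughout. The fold of TKO over WT was 0.913 (95% interval 0.610 to 1.37), that of TKO over δKO 0.992 (0.662 to 1.48) and that of δKO over WT 0.921 (0.615 to 1.38). Without δKO replicate 1 and the unnumbered δKO library, the log2 fold change was 0.39 for TKO against δKO and -0.53 for δKO against WT. Mtor lies on chromosome 4 (mm10, positions 148448611 to 148557683), 1.09 Mb from the targeted gene Pik3cd. Any effect of the DNA linked to the Pik3cd allele on Mtor cannot be told apart from that of the genotype in TKO or δKO against WT.

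Mlst8, the stabilizing subunit of both complexes, had the widest spread. Its level was 10.1, 11.5 and 14.5 CPM in WT, 0.917, 8.89 and 16.3 CPM in δKO, and 7.11, 9.68 and 4.68 CPM in TKO. The TKO libraries all lay below the WT libraries, although the highest TKO value and the lowest WT value were close. The fold of TKO over WT was 0.595 with an interval of 0.171 to 2.07 (edgeR's unadjusted p = 0.382, adjusted p = 1.00). The 0.917 CPM of δKO replicate 1 came from 23 counts, whereas the other libraries had 221 to 606. Without that library the log2 fold change of δKO against WT moved from -0.47 to 0.065, and that of TKO against δKO from -0.28 to -0.82. The neutrophil sum given above was also lowest for δKO in replicate 1, at 252 CPM, and highest in the unnumbered library, at 11500 CPM. It lay below WT in every TKO library. Within WT and TKO the order differed. WT replicate 1 had the highest sum of WT, 11800 CPM, and the lowest Mlst8. TKO replicate 3, at 875 CPM, had less Mlst8 than replicate 1, at 150 CPM, although replicate 2 was highest in both. The part of the neutrophil genes in the Mlst8 values was not tested. Bricd5, a gene of the opposite strand that covers 22.5% of the Mlst8 exon bases, had 0 counts in all libraries.

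In the mTORC1 arm, Rptor and Akt1s1 both had their highest means in TKO, without passing the test. Rptor, the scaffold that recruits substrates, stood at 65.4, 59.1 and 53.5 CPM in WT, 82.4, 67.4 and 50.9 CPM in δKO, and 58.8, 85.4 and 88.7 CPM in TKO. TKO replicates 2 and 3 were above WT, and replicate 1 was within its range. TKO over WT gave a fold of 1.31 (95% interval 0.849 to 2.01). Akt1s1, which encodes an AKT substrate that restrains mTORC1, stood at 7.59, 10.1 and 8.69 CPM in WT, 17.1, 6.68 and 7.30 CPM in δKO, and 15.6, 18.0 and 10.2 CPM in TKO. The TKO libraries were above WT, by a narrow margin between TKO replicate 3 and WT replicate 2. The fold of TKO over WT was 1.66 (95% interval 0.708 to 3.90; edgeR's unadjusted p = 0.218, adjusted p = 1.00). The high δKO value was again replicate 1, and without it the log2 fold change of δKO against WT moved from 0.24 to -0.33. That library had the lowest neutrophil sum of δKO, 252 CPM, and this sum was lower in TKO than in WT. Within TKO, though, replicate 2 had both the highest Akt1s1 and the highest sum, 3010 CPM. The part of the neutrophil genes in the Akt1s1 values was not tested. Tbc1d17, which shares 2.90% of the Akt1s1 exon bases on the opposite strand, stood at 16.6 to 21.4 CPM in WT, 4.95 to 12.6 in δKO, below all WT libraries, and 6.77 to 29.4 in TKO.

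In the mTORC2 arm, Rictor and Mapkap1 overlapped between all genotypes. Rictor, the defining subunit, stood at 64.4, 107 and 98.5 CPM in WT, 172, 92.5 and 77.4 CPM in δKO, and 105, 76.4 and 116 CPM in TKO. The highest library was δKO replicate 1. TKO over WT gave a fold of 1.10 (95% interval 0.658 to 1.85) and that of δKO over WT 1.26 (0.754 to 2.12). Without δKO replicate 1 the log2 fold change of δKO against WT moved from 0.34 to -0.083. Mapkap1, whose product mSIN1 brings substrates to mTORC2, stood at 102, 65.7 and 70.4 CPM in WT, 113, 106 and 68.9 CPM in δKO, and 79.1, 74.4 and 82.4 CPM in TKO. The TKO libraries were close together, inside the WT range. TKO over WT gave a fold of 0.992 (95% interval 0.650 to 1.52) and that of TKO over δKO 0.820 (0.537 to 1.25). The log2 fold change of TKO against δKO was -0.29 with all libraries, -0.15 without δKO replicate 1 and -0.48 without the unnumbered δKO library.

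The genes of the TSC complex and Rheb did not pass the test either. Tsc1, the stabilizing subunit, stood at 50.1, 61.1 and 37.6 CPM in WT, 136, 49.5 and 41.1 CPM in δKO, and 76.2, 50.8 and 68.2 CPM in TKO. δKO replicate 1 alone raised the δKO mean, and the log2 fold change of δKO against WT was 0.61 with it and -0.13 without it. Tsc2, which carries the GTPase-activating function toward Rheb, stood at 97.2, 73.8 and 65.5 CPM in WT, 97.9, 58.3 and 65.2 CPM in δKO, and 68.7, 88.3 and 74.9 CPM in TKO. Its fold of TKO over WT was 0.980 (95% interval 0.635 to 1.51). Pkd1 overlaps 7.20% of the Tsc2 exon bases on the opposite strand and stood at 73.2 to 327 CPM over the libraries. Without strand in the counting, reads of such overlaps cannot be assigned, and the sources used here do not give the strand setting.

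Rheb stood at 40.3, 35.7 and 46.3 CPM in WT, 8.74, 30.8 and 39.4 CPM in δKO, and 25.3, 18.7 and 36.6 CPM in TKO. TKO replicates 1 and 2 were below WT, and replicate 3 was within its range. The fold of TKO over WT was 0.659 (95% interval 0.309 to 1.41; edgeR's unadjusted p = 0.253, adjusted p = 1.00) and that of δKO over WT 0.646 (0.303 to 1.38). The lowest library, δKO replicate 1, had 219 Rheb counts. Without it the log2 fold change of TKO against δKO moved from 0.03 to -0.39, and that of δKO against WT from -0.63 to -0.22. Without the unnumbered library instead, the latter was -1.04. The neutrophil sum had the same order of δKO libraries, at 252, 4420 and 11500 CPM, but not of those of TKO or WT. TKO replicate 2 had the highest sum of TKO, 3010 CPM, and the lowest Rheb. WT replicate 1 had the highest sum of WT, 11800 CPM, and replicate 3 the highest Rheb. The part of the neutrophil genes in the Rheb values was not tested.

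**Figure D2:**
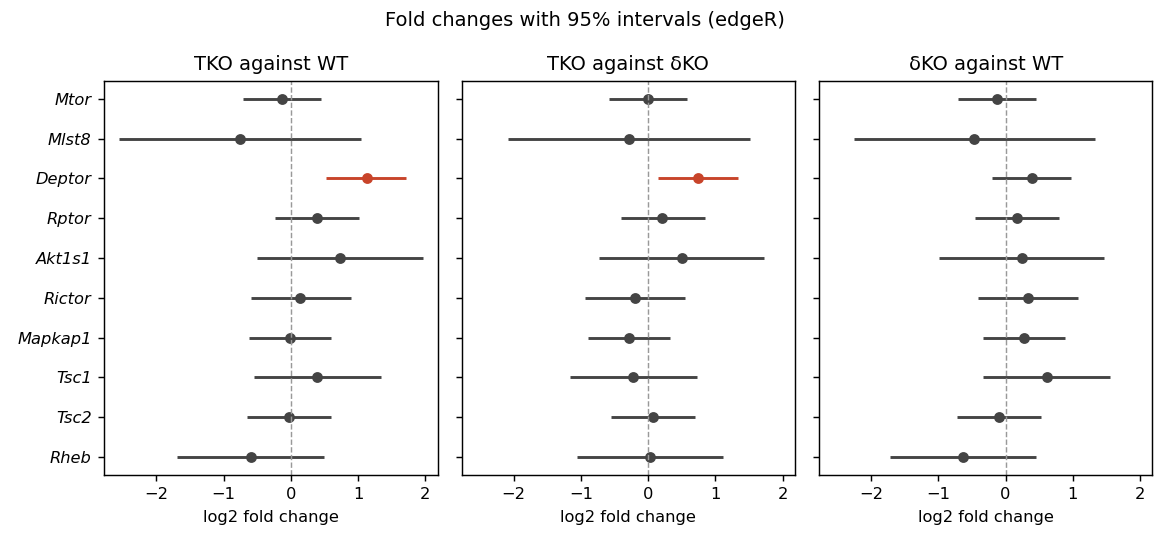
Log2 fold change (point) and 95% interval (line) of each gene in the 3 comparisons, from edgeR's model of all 9 libraries; red marks intervals that leave out 0. Deptor is the gene so marked, at 1.13 for TKO against WT and 0.74 for TKO against δKO, and Mlst8 has the widest interval.

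Counts over the 10 genes were set beside those over all genes tested. With edgeR's quasi-likelihood test, 0 of 10 were called (adjusted p under 0.05 and more than 2-fold) in each comparison, where 0.00549% of all genes were called for TKO against WT, 0.0% for TKO against δKO and 0.00549% for δKO against WT. DESeq2 fitted to all 9 libraries called Deptor for TKO against WT, 0 of 10 for TKO against δKO, where it called 1.8% of all genes, and 0 of 10 for δKO against WT, where it called 0.423%. An unadjusted p under 0.05 was reached by 1 of 10 for TKO against WT, beside 4.19% of all genes, by 1 of 10 for TKO against δKO, beside 10.2%, and by 0 of 10 for δKO against WT, beside 7.01%. Deptor was that gene in both cases. For TKO against δKO its unadjusted p was not under 0.05 in every alternative fit. DESeq2 fitted to these 2 genotypes alone gave 0.0519, and the highest from edgeR's alternative fits was 0.0696. For TKO against WT, libraries did not overlap in 2 genes with TKO higher (Deptor and Akt1s1), beside 6.88% of all genes, and in 1 with TKO lower (Mlst8), beside 7.47%. For TKO against δKO they did not overlap in 1 gene with TKO higher, beside 6.98%, and in 0 with TKO lower, beside 4.74%. For δKO against WT no gene was apart in either direction, beside 4.13% of all genes with δKO higher and 7.39% with δKO lower. The 95% intervals of 3 genes, Mtor, Mapkap1 and Tsc2, stayed within a 2-fold change in both directions in all 3 comparisons, whereas those of the other 7 reached it in at least 1. The median log2 fold change of the 10 genes was 0.066 for TKO against WT, 0.009 for TKO against δKO and 0.20 for δKO against WT, and that of all genes was 0.017, -0.055 and 0.046. Without δKO replicate 1 the median of the 10 genes was 0.27 for TKO against δKO and -0.11 for δKO against WT, and without the unnumbered δKO library as well it was 0.30 and -0.20. Over all single libraries left out, it ranged from 0.0053 (without TKO replicate 3) to 0.18 (without WT replicate 1) for TKO against WT, from -0.13 (without δKO replicate 2) to 0.27 for TKO against δKO, and from -0.11 to 0.31 (without the unnumbered δKO library) for δKO against WT. TKO against WT and TKO against δKO share the TKO libraries, and TKO against WT and δKO against WT share the WT libraries, so these counts are not independent.

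δKO replicate 1 held the highest value of 4 genes (Rictor, Mapkap1, Tsc1 and Tsc2) and the lowest of 2 (Mlst8 and Rheb). It was thus the extreme of the 9 libraries for 6 of the 10 genes, as it was for 52.7% of all genes, a share close to theirs. The unnumbered δKO library held the highest Mlst8 and the lowest Rptor, and was an extreme for 36.8% of all genes.

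The ratio of Deptor to Mtor within a library, which does not depend on scaling between libraries, separated all 3 genotypes. Per kilobase, the ratio was 0.543, 0.477 and 0.673 for WT, 0.786, 0.798 and 0.791 for δKO and 1.16, 1.34 and 1.54 for TKO. The Deptor transcript was thus below Mtor in every WT and δKO library and above it in every TKO library. The mean log2 ratio was -0.84 ± 0.25 for WT, -0.34 ± 0.01 for δKO and 0.42 ± 0.20 for TKO (SD, n = 3). The difference in log2 ratio was 1.26 for TKO against WT, 0.76 for TKO against δKO and 0.50 for δKO against WT. Each gave p = 0.1 in an exact two-sided permutation test, the smallest that 3 libraries against 3 allow, and p = 0.5 after adjustment over the 15 tests of the 5 ratios compared. Set over Mtor in the same way, 10 of 18204 genes, or 0.0549%, had the libraries of WT below δKO below TKO without overlap, Deptor among them. This order was noticed in the values of Deptor and then counted, and any one order of 9 libraries is rare whatever the gene, so the low share does not set Deptor apart.

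The other ratios overlapped between genotypes. The log2 ratio of Rptor to Rictor, the scaffolds of mTORC1 and mTORC2, was -0.24 ± 0.51 for WT, -0.38 ± 0.31 for δKO and -0.03 ± 0.50 for TKO. That of Tsc1 to Tsc2 was -0.98 ± 0.36 for WT, -0.44 ± 0.58 for δKO and -0.56 ± 0.49 for TKO. That of Akt1s1 to Rptor was -0.63 ± 0.30 for WT, -0.67 ± 0.53 for δKO and -0.29 ± 0.62 for TKO. The ratio of Rheb to Tsc2, the GTPase and the protein that inactivates it, was -0.62 ± 0.40 for WT, -1.39 ± 1.54 for δKO and -1.25 ± 0.61 for TKO on the log2 scale, and the wide δKO spread came from replicate 1 at -3.17. Their exact permutation p ranged from 0.2 to 1.0, and from 0.6 to 1.0 after adjustment.

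**Figure D3:**
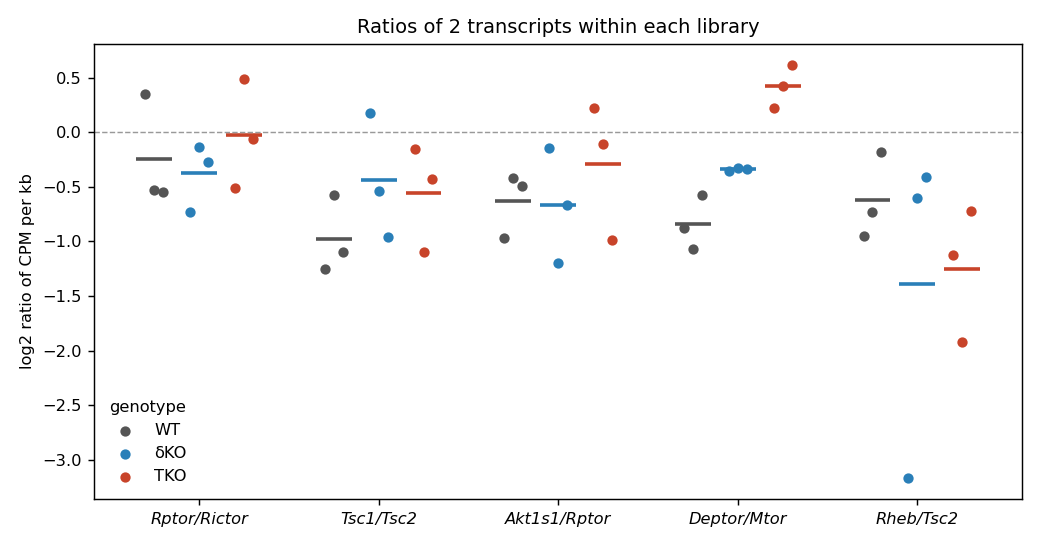
Log2 ratio of CPM per kb of 2 transcripts in the same library, for 5 pairs; a point is a library and a bar the mean of 3, with WT in gray, δKO in blue and TKO in red. Deptor/Mtor is the pair in which the genotypes are apart, from -1.07 to -0.57 for WT, near -0.34 for δKO and from 0.22 to 0.62 for TKO.

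Promoter sequences of RefSeq (build GRCm38.p6, 250 bases before to 50 after the start) were given for 9 of the 10 genes, as 10 promoters, with no entry for Deptor. They were searched on both strands for GTAAACA, the core bound by FoxO factors, which AKT keeps out of the nucleus, and for CACGTG, the E-box, which is bound by basic helix-loop-helix factors such as TFEB, a target of mTORC1. The letters GTAAACA do not overlap CACGTG, and both were chosen after the sequences had been seen. GTAAACA was found in 2 of the 10 promoters, both of Mapkap1 and at the same place in the genome, and in 3.65% of all 32851 promoters. CACGTG was found in 1 of the 10, that of Rheb, and in 7.15% of all promoters. The matches are shown with the motif in capitals, 5′ to 3′ on the strand of the gene, as the places in these genes where either set of letters was found.
Mapkap1: tacacttgaagGTAAACAgaagttggttaa
Rheb: gccgcgcgcggtCACGTGggtgtgttgttg
The Mapkap1 window is chr2:34406661-34406690 on the plus strand, upstream of the annotated gene, which starts at 34406771. The Rheb window is chr5:24842440-24842469 on the minus strand, within the annotated gene, whose first base on that strand is 24842624. A match describes the letters and not a bound site, and the values of Mapkap1 and Rheb given above did not pass the test in any comparison.

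The wider pathway was followed in 4 lists, of which 72 genes passed the filter. None was called by edgeR in any comparison. An unadjusted p under 0.05 was reached by 0 genes for TKO against WT, by 4 for TKO against δKO (5.56% of the 72), all with TKO lower, and by 3 for δKO against WT (4.17%), all with δKO higher. The shares of all genes in these comparisons were 4.19%, 10.2% and 7.01%, each above that of the lists. For TKO against WT, 4 of the 72 genes had TKO libraries above and 10 below all WT libraries, beside 6.88% and 7.47% of all genes. The share of the lists above WT was thus smaller than that of all genes, and the share below WT was larger. For TKO against δKO the numbers were 0 and 4, beside 6.98% and 4.74%, and for δKO against WT 1 and 2, beside 4.13% and 7.39%.

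Among the 16 tested regulators of TSC and Rheb, the AMPK subunit gene Prkag2 had the smallest p, with 44.9 ± 14.9 CPM for WT, 90.7 ± 36.4 for δKO and 59.9 ± 0.881 for TKO. Its log2 fold change of δKO against WT was 1.01 (edgeR's unadjusted p = 0.0169, adjusted p = 0.699), and 0.13 without δKO replicate 1 and the unnumbered δKO library. Rps6ka1, a kinase of the ERK pathway that can phosphorylate TSC2, stood at 133 ± 33.0 CPM for WT, 141 ± 105 for δKO and 77.9 ± 16.4 for TKO, and its TKO libraries lay below WT. The δKO mean rested on the unnumbered library, at 262 CPM against 81.6 and 78.7, and the log2 fold change of TKO against δKO was -0.85 with it and -0.043 without it. The neutrophil sum was also highest for δKO in the unnumbered library, at 11500 CPM. It was 252 and 4420 CPM in δKO replicates 1 and 2, whose Rps6ka1 levels were close. Within WT, replicate 3 had a sum of 10900 CPM and the lowest Rps6ka1, 105 CPM. The sum was 4970 to 11800 CPM in WT against 150 to 3010 CPM in TKO. Its part in the Rps6ka1 values was not tested. Prkaa1, a catalytic subunit of AMPK, stood at 36.6 ± 8.86, 61.2 ± 33.6 and 42.2 ± 9.77 CPM in WT, δKO and TKO. Its log2 fold change of δKO against WT was 0.74, and 0.20 without δKO replicate 1, which stood at 99.6 CPM. Tbc1d7, the third subunit of the TSC complex, stood at 6.09 ± 2.59, 3.88 ± 4.43 and 3.90 ± 1.39 CPM. Rhebl1, a paralog of Rheb, stood at 4.14 ± 1.34, 4.84 ± 4.04 and 7.01 ± 4.24 CPM, so both were low.

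Among the 9 tested mTORC2 partners and stabilizers, Hsp90aa1, an inducible cytosolic HSP90 chaperone gene, stood at 691, 635 and 534 CPM for WT, 585, 712 and 1140 for δKO and 420, 500 and 490 for TKO. The TKO libraries lay below all 6 others. The log2 fold change of TKO against δKO was -0.79 (95% interval -1.36 to -0.22; edgeR's unadjusted p = 0.0106, adjusted p = 0.465). Without the unnumbered δKO library, the highest at 1140 CPM, it was -0.47 (edgeR's unadjusted p = 0.0606), and without δKO replicate 1 as well it was -0.60. The 10 genes of dividing cells, whose sums are given above, were also below all 6 others in TKO and highest, at 3700 CPM, in the unnumbered δKO library. The neutrophil sum, too, was lower in TKO than in WT and highest for δKO in the unnumbered library, at 11500 CPM. The part of either list in this result was not tested. Ruvbl2, an ATPase of the chaperone system that assembles PI3K-related kinases, stood at 95.2 ± 13.5, 118 ± 8.62 and 84.3 ± 21.5 CPM in WT, δKO and TKO. Prr5 (Protor-1) stood at 13.2 ± 5.27, 9.76 ± 5.13 and 14.3 ± 5.84 CPM, and Prr5l (Protor-2) at 3.26 ± 2.65, 1.97 ± 2.15 and 6.88 ± 2.73 CPM, in both cases with overlap between genotypes.

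Among the 17 tested substrates and outputs of mTORC1, no gene reached an unadjusted p under 0.05. Rps6kb1, the gene of S6 kinase 1, stood at 82.2, 92.7 and 99.3 CPM for WT, 51.3, 81.2 and 70.8 for δKO and 62.0, 72.8 and 81.2 for TKO. Both Pik3cd-null groups lay below WT, with 81.2 against 82.2 CPM at the closest libraries. Eif4ebp1, the translational repressor 4E-BP1, stood at 11.5 ± 2.82 CPM for WT, 16.2 ± 4.67 for δKO and 9.58 ± 4.45 for TKO. Ulk1, the autophagy kinase that mTORC1 inhibits, stood at 92.9 ± 22.2, 113 ± 30.6 and 130 ± 25.2 CPM in WT, δKO and TKO. Eif4b, a translation initiation factor, stood at 601 ± 62.1, 842 ± 308 and 760 ± 81.6 CPM. Its log2 fold change of δKO against WT was 0.49, and 0.15 without the unnumbered δKO library, which stood at 1200 CPM.

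Among the 30 tested genes of the amino acid branch (Rag, Ragulator, GATOR and sensors), the highest values of Depdc5, Castor2 and Lamtor4 were those of δKO replicate 1. Depdc5, a subunit of the GATOR1 complex that inhibits the Rag GTPases, stood at 73.3, 62.1 and 68.6 CPM for WT, 241, 63.0 and 64.8 for δKO and 52.5, 54.4 and 56.3 for TKO. The TKO libraries lay below all 6 others. Its log2 fold change of TKO against δKO was -1.18 (edgeR's unadjusted p = 0.0247, adjusted p = 0.465) and -0.24 without δKO replicate 1. Castor2, a relative of the arginine sensor Castor1, stood at 458 CPM in δKO replicate 1 and at 10.8 to 37.1 CPM in the 8 other libraries. Lamtor4, a subunit of the Ragulator complex that anchors Rag GTPases to the lysosome, stood at 15.4, 15.2 and 22.8 CPM for WT, 48.8, 25.3 and 18.7 for δKO and 5.01, 12.9 and 14.7 for TKO. The TKO libraries of Lamtor4 also lay below all 6 others. Its log2 fold change of TKO against δKO was -1.51 (95% interval -2.69 to -0.33; edgeR's unadjusted p = 0.0163, adjusted p = 0.465), and -1.02 without δKO replicate 1. TKO libraries below the 6 others were found for 1.69% of all genes, and Hsp90aa1, Depdc5 and Lamtor4 were named for their small p. The sum of the dividing-cell genes had the same position in TKO, but was lowest for δKO in replicate 1, at 2350 CPM. Its part in the Depdc5 and Lamtor4 values was not tested.

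The genes whose log2 CPM followed Mtor most closely over the 9 libraries were Csnk2b (Pearson r = 0.88), Cdc42bpg (0.87), Tcf7l1 (0.87), Timm29 (0.86) and Cyth4 (0.86). Of the other genes described here, Tsc2 was the closest to Mtor (r = 0.71), and the rest lay between -0.29 (Rictor) and 0.28 (Akt1s1). These are descriptions over 9 libraries of 3 genotypes that share depth and composition effects, and no test was made of them.

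**Figure D4:**
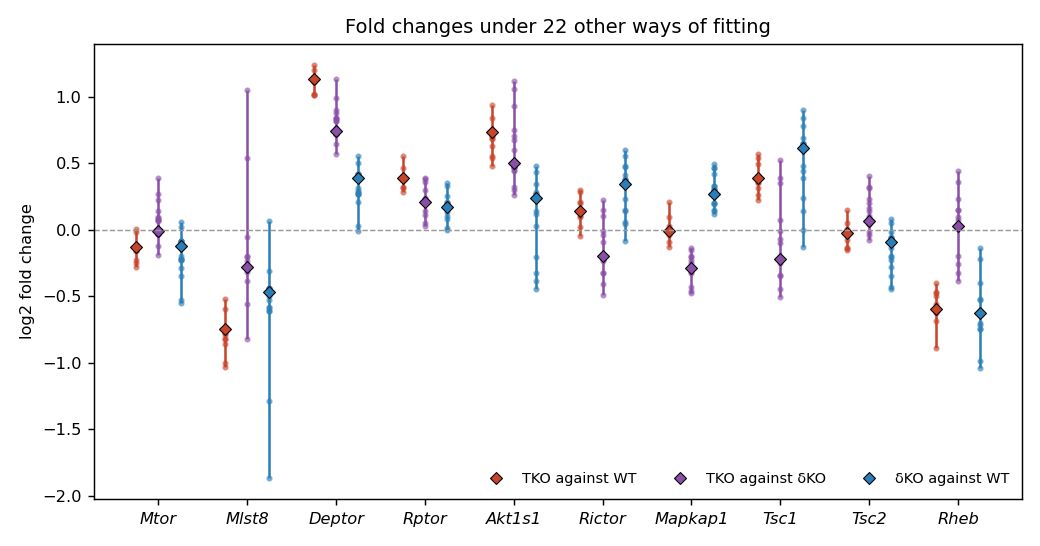
Log2 fold change of each gene as reported (diamond) and under 22 alternative fits (small points, joined by a line from lowest to highest), for the 3 comparisons. Deptor stays between 1.01 and 1.24 for TKO against WT and between 0.57 and 1.13 for TKO against δKO, and its line reaches -0.0091 for δKO against WT; each of the other genes crosses 0 in at least 1 comparison.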

How the data were processed

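The authors trimmed reads with Trim Galore 0.3.7, checked them with FastQC 0.11.4, aligned them to mm10 with STAR 2.5.1b and deposited raw counts per gene, whole numbers for 47643 genes in 9 libraries, used here. RNA had been amplified with the Ovation RNA-Seq System V2. How the 2 technical runs per library were joined, the annotation and the strand setting are not given in the sources used here. The deposited normalized values were not used. Columns were matched to genotypes by name.

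In R 4.3.3, filterByExpr (count minimum 10, total 15) kept 18205 genes, which were scaled by TMM and fitted with the quasi-likelihood model of edgeR 4.0.16, 1 mean per genotype and no block. Calls needed a Benjamini-Hochberg adjusted p under 0.05 over all genes and more than 2-fold change. Intervals are 95%. DESeq2 1.42.0 and limma 3.58.1 were alternatives. Ratios of CPM per kb were compared with exact permutation tests (scipy 1.17.1). Exon lengths and places come from GENCODE's mm10 annotation. Same-numbered libraries did not deviate together (r from -0.036 to 0.083), so numbers were not taken as pairs.

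The genes, the lists and the tests were chosen with earlier results of these data known. Besides the 10 genes, the text names Tbc1d7, Rhebl1, Prr5, Prr5l, Rps6kb1, Eif4ebp1, the 3 genes of each pathway list with the smallest unadjusted p, the targeted genes and the 5 genes most like Mtor. Some genes that overlap the exons of the 10, and some marker genes of cell types, are named as well. The list entry Samtor was not matched to a symbol. One gene of the LT-HSC marker list is not reported here.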

Additional observations from a re-analysis of the deposited data

How the results depend on the processing

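Deptor kept its direction for TKO against WT and TKO against δKO in all 22 alternative fits. The number of the 10 genes called for TKO against WT was 0 with edgeR and 1 (Deptor) in each of the 3 DESeq2 fits, on all 9 libraries, on the 2 genotypes and without the filter, and 0 in the other alternatives; in the other comparisons it was 0 throughout. Upper-quartile factors moved the median of all genes by 0.14 for TKO against δKO and by -0.15 for δKO against WT.

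Of the 30 fold changes of the 10 genes, 12 never changed sign and 18, whose 95% intervals all included 0, did so at least once. The cause was not tested. All values are log2 fold changes. For TKO against WT, Mapkap1 was 0.0072 with genes detected as a covariate and 0.094 with voom. For TKO against δKO, Mtor was 0.14 with upper-quartile factors, 0.074 with at least 10 counts in every library, 0.27 with the covariate and 0.063 with voom, Tsc1 was 0.07 with the covariate and 0.35 with voom, Rictor was 0.15 with voom, and Rheb was -0.33 with the covariate. For δKO against WT, Akt1s1 was -0.45 with the covariate and -0.21 with voom, and Tbc1d7 was 0.34 with the covariate. Without δKO replicate 1 and the unnumbered δKO library (chosen after the data were examined, as were voom and the unfiltered DESeq2 fit), TKO against δKO gave 0.39 for Mtor, 0.10 for Rictor, 0.39 for Tsc1 and -0.20 for Rheb, and δKO against WT gave -0.0091 for Deptor, -0.39 for Akt1s1, -0.0019 for Tsc1, 0.56 for Tbc1d7 and -0.044 for Castor2; the lone δKO library is then assumed to vary like the other groups.

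With the replicate number as a block (8 libraries), 0 of the 10 genes were called in each comparison, Mapkap1 was 0.006 and Tsc2 0.0016 for TKO against WT, and Mtor was 0.22, Mlst8 1.05 and Rps6ka1 0.068 for TKO against δKO. Of the 6 WT and TKO libraries, 3 correlated best with their own number.

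Leaving out 1 library at a time gave, for TKO against WT, -0.25 to 0.0075 for Mtor, -0.052 to 0.30 for Rictor, -0.13 to 0.21 for Mapkap1 and -0.15 to 0.15 for Tsc2. For TKO against δKO it gave -0.19 to 0.097 for Mtor, -0.41 to 0.22 for Rictor, -0.82 to 0.54 for Mlst8, -0.51 to 0.52 for Tsc1, -0.081 to 0.32 for Tsc2 and -0.39 to 0.44 for Rheb. For δKO against WT it gave -0.23 to 0.054 for Mtor, -0.0038 to 0.33 for Rptor, -0.083 to 0.55 for Rictor, -1.29 to 0.065 for Mlst8, -0.33 to 0.48 for Akt1s1, -0.13 to 0.90 for Tsc1, -0.35 to 0.082 for Tsc2 and -0.26 to 3.31 for Castor2. The difference in log2 ratio ranged from -0.044 to 0.51 for Rptor to Rictor (TKO against WT), -0.29 to 0.16 for Rptor to Rictor (δKO against WT), -0.38 to 0.19 for Tsc1 to Tsc2 (TKO against δKO), -0.31 to 0.22 for Akt1s1 to Rptor (δKO against WT), -0.75 to 0.63 for Rheb to Tsc2 (TKO against δKO) and -1.26 to 0.12 for Rheb to Tsc2 (δKO against WT).

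The 95% intervals of 7 of the 10 genes reached a 2-fold change in at least 1 comparison, so the data do not set a limit below 2-fold there.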
